A study of Mus musculus with 12 samples.

Results

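The MCM helicase genes Mcm2 to Mcm7, together with Mcm10, Cdt1, Cdc6 and Gmnn, were followed across pituitary tumors of pro-opiomelanocortin knockout (POMC KO) mice and normal mouse pituitary. A probe set, the group of short probes that reports a transcript on the array, was taken when the annotation named exactly 1 gene and that gene was one of these 10. This gave 27 probe sets of the 34945 that name a single gene, and 10 genes of the 18193 such genes on the array. Total RNA from whole tissue had been measured on 12 Affymetrix Mouse Genome 430 2.0 arrays. Heterozygous POMC KO mice supplied the tumors on 8 arrays and homozygous POMC KO mice those on 2, and the last 2 arrays held normal mouse pituitary. The tumors had arisen spontaneously with no treatment, and the POMC KO is used as a model of human nonfunctioning pituitary adenoma (NFPA). The age, sex and strain of the animals on these arrays were not given in the sources used here, and it was not clear whether each normal array held 1 gland or a pool.

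The tumor arrays fell into 5 pairs of consecutive numbers. Arrays of the same pair correlated at 0.997 to 0.998 and differed over 2-fold at 0 to 4 probe sets, against 433 to 982 for arrays of different heterozygous pairs and 309 for the 2 normal arrays. The series description counts every array as a mouse, and the labels name no pairs, so this pairing is read from the values alone. The mean of a pair was taken as 1 sample, giving 4 heterozygous samples (1-2, 3-4, 5-6 and 7-8), 1 homozygous sample and 2 normal samples. The targeted gene, Pomc, read 15.28, 15.30, 15.27 and 15.15 in the heterozygous samples, 7.18 in the homozygous sample, then 15.08 and 15.11 in normal pituitary, all as log2 signal. Its heterozygous and normal values lay near the highest value on the arrays outside the controls (15.31), where differences are hard to read. Pomc was thus lower in the homozygous sample by a log2 change of -7.92 (SE 0.15, adjusted p = 1.11e-06, limma), and its heterozygous change was 0.16 (adjusted p = 0.331, limma). Xist, which is transcribed from the inactive X chromosome of females, read 4.58, 10.93, 5.0 and 11.25 in the heterozygous samples, 11.20 in the homozygous sample, and 5.07 and 4.57 in normal pituitary, so that the homozygous and normal samples differed in Xist as well as in genotype.

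Replication licensing prepares each origin of DNA replication to fire once per cell cycle. The origin recognition complex binds the origin, Cdc6 and Cdt1 join it, and together they load the ring of Mcm2, Mcm3, Mcm4, Mcm5, Mcm6 and Mcm7 onto the DNA as an inactive double helicase. Kinases then turn the ring, with Cdc45 and the GINS complex, into the active helicase, and Mcm10 acts at that step, while geminin, the product of Gmnn, holds Cdt1 back until mitosis has passed. Cells that leave the cell cycle lose most of these proteins, which makes MCM proteins common markers of proliferation in tumor pathology.

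In heterozygous tumors, 9 of the 10 genes were higher than in normal pituitary and none was lower. A gene was called when the adjusted p of its probe set fell under 0.05 and the signal differed by more than 2-fold. At this rule 5.57% of all 12320 genes tested were called higher and 4.55% lower. The log2 fold changes of the 10 genes ran from 0.64 to 3.77 with a median of 2.42, against a median of 0.00 over all genes tested. Mcm10 was the exception. All 10 genes were tested, each through the probe set with the highest mean signal, and only 1 or 2 samples stood on the homozygous and normal sides, so that the number of arrays limits the precision of each value. In bulk tissue, a larger share of replicating cells and more RNA per cell cannot be told apart.

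**Figure D1:**
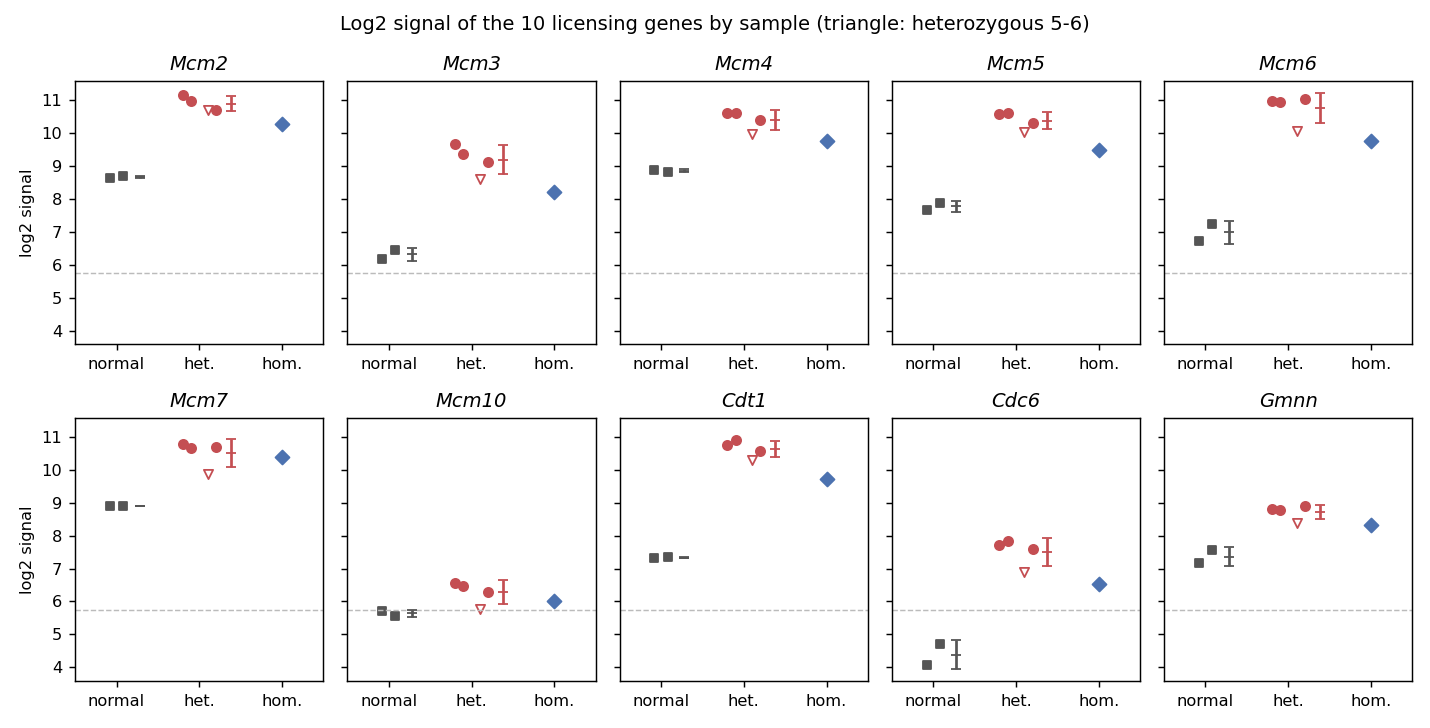
Log2 signal (vertical axis) of the 10 genes in each sample, with squares for the 2 normal samples, circles and an open triangle for the 4 heterozygous samples, a diamond for the homozygous sample, and the mean ± SD drawn beside the normal and heterozygous points; the dashed line is the low-value limit of 5.74. In all 10 panels the tumor samples lie above both normal samples, and the open triangle (heterozygous 5-6) is the lowest of the heterozygous points.

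Mcm6, a subunit of the helicase ring, had the largest change of the 10. It read 10.98, 10.95, 10.07 and 11.03 in the heterozygous samples, 9.76 in the homozygous sample, and 6.73 and 7.24 in normal pituitary. The groups did not overlap, and heterozygous 5-6 stood 0.88 below the next heterozygous sample. The heterozygous log2 change was 3.77 (SE 0.30, adjusted p = 0.000432, limma), a 13.7-fold difference that ranked 13 of 12320 genes. The homozygous log2 change was 2.77 (SE 0.42, adjusted p = 0.0242, limma), or 6.84-fold.

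Mcm3 and Mcm5 sit next to each other in the ring. Mcm3 read 9.67, 9.36, 8.61 and 9.12 in the heterozygous samples, 8.22 in the homozygous sample, and 6.17 and 6.46 in normal pituitary. Its heterozygous log2 change was 2.87 (SE 0.27, adjusted p = 0.000737), and its homozygous change of 1.91 (SE 0.39) had an adjusted p of 0.0514 in the limma fit and was not called. The homozygous value was again between the 2 groups. For Mcm5 the heterozygous samples read 10.57, 10.61, 10.04 and 10.30, the homozygous sample 9.49, and normal pituitary 7.66 and 7.89. Mcm5 was called in both genotypes, by a heterozygous log2 change of 2.61 (SE 0.18, adjusted p = 0.000319, limma) and a homozygous one of 1.71 (SE 0.26, adjusted p = 0.0243, limma).

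Mcm2, the subunit that also carries parental histones at the fork, read 11.17, 10.99, 10.70 and 10.71 in the heterozygous samples, 10.27 in the homozygous sample, and 8.64 and 8.69 in normal pituitary. Here heterozygous 5-6 and 7-8 were almost level. The log2 change was 2.23 for heterozygous tumors (SE 0.16, adjusted p = 0.000351, limma) and 1.60 for the homozygous sample (SE 0.23, adjusted p = 0.0208, limma), both called.

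Mcm4 and Mcm7 form, with Mcm6, a subcomplex that can act as a helicase on its own. Mcm4 read 10.62, 10.62, 9.98 and 10.41 in the heterozygous samples, 9.77 in the homozygous sample, and 8.89 and 8.83 in normal pituitary. Its heterozygous log2 change of 1.55 was called (SE 0.19, adjusted p = 0.00207, limma), and its homozygous change of 0.91 was not (SE 0.27, adjusted p = 0.142, limma). As for Mcm6, heterozygous 5-6 was the lowest of its group and the homozygous sample lay beneath it. Mcm7 read 10.79, 10.66, 9.87 and 10.70 in the heterozygous samples, 10.38 in the homozygous sample, and 8.90 in each of the 2 normal samples. The homozygous value of Mcm7 lay above heterozygous 5-6, which was not so for any other ring subunit. Mcm7 was called in heterozygous tumors, with a log2 change of 1.60 (SE 0.26, adjusted p = 0.00526, limma), and its homozygous change of 1.48 (SE 0.36) had an adjusted p of 0.0870 in the same limma fit.

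Cdt1 and Cdc6 load the ring. Cdt1 read 10.75, 10.90, 10.31 and 10.57 in the heterozygous samples, 9.72 in the homozygous sample, and 7.31 and 7.34 in normal pituitary. Its spread within groups was small beside the distance between them. The log2 change was 3.30 for heterozygous tumors (SE 0.17, adjusted p = 0.000176, limma), the smallest adjusted p of the 10 genes, and 2.39 for the homozygous sample (SE 0.24, adjusted p = 0.00826, limma). Cdc6 read 7.72, 7.85, 6.90 and 7.58 in the heterozygous samples, 6.54 in the homozygous sample, and 4.08 and 4.70 in normal pituitary. Both normal values of Cdc6 were under the median of all values on the arrays (5.74), where signal and background are hard to separate, so the size of its change is inexact. Cdc6 was called in both genotypes, with log2 changes of 3.12 (SE 0.29, adjusted p = 0.000680, limma) and 2.15 (SE 0.41, adjusted p = 0.0438, limma).

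Gmnn, which encodes the Cdt1 inhibitor geminin, moved in the same direction as the loaders. It read 8.80, 8.78, 8.40 and 8.90 in the heterozygous samples, 8.31 in the homozygous sample, and 7.16 and 7.56 in normal pituitary. The heterozygous log2 change of 1.36 was called (SE 0.18, adjusted p = 0.00253, limma) and the homozygous change of 0.95 was not (SE 0.26, adjusted p = 0.108, limma). Mcm10, the factor of helicase activation, read 6.58, 6.48, 5.77 and 6.29 in the heterozygous samples, 6.0 in the homozygous sample, and 5.71 and 5.57 in normal pituitary. Its heterozygous 5-6 value was only just above the higher normal value. The log2 changes of Mcm10 were 0.64 (SE 0.23, adjusted p = 0.0827, limma) and 0.37 (SE 0.32, adjusted p = 0.604, limma), and neither was called. Its signal was near the low-value limit in every sample, and the arrays of heterozygous 3-4 alone differed by 0.47, the largest difference within a pair among the 10 genes.

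**Figure D2:**
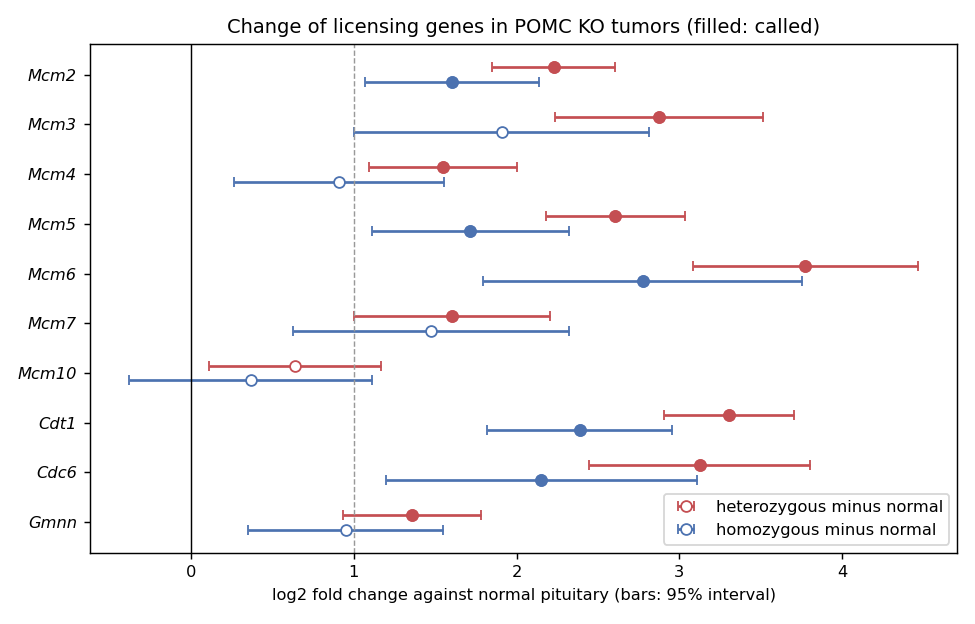
Log2 fold change against normal pituitary (horizontal axis) of each gene, in heterozygous tumors (red) and in the homozygous sample (blue), with 95% intervals from the limma fit as bars; filled points were called and the dashed line marks a 2-fold change. Heterozygous changes run from 0.64 (Mcm10) to 3.77 (Mcm6), and each homozygous point is to the left of the heterozygous point of its gene.

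Many genes of DNA replication carry sites for E2F, the transcription factor family that is held in check by the retinoblastoma protein. Because 9 of the 10 genes were higher together, their promoters were read for the exact words TTTCCCGC, TTTGGCGC, TTTCGCGC and TTTGCCGC on both strands. The windows, from RefSeq on the mouse build GRCm38.p6, cover 250 bases before and 50 bases after the annotated start. Of the 10 genes, 8 matched a promoter entry, and 6 of these 8 held an E2F word (Mcm3, Mcm5, Mcm6, Mcm7, Cdt1 and Cdc6), against 2.26% of 32851 promoters of the same length and 2.6% of the 27025 genes they belong to. Entries for Mcm4 and Gmnn were not matched, and Mcm2 and Mcm10 held none of these exact words. The CCAAT box was in 6 of the 8 against 37.4% of all promoters, and TTTGAA, the core of the cell cycle homology region, was in 1 of the 8 against 17.9%. Of the other genes read below, an E2F word was in 2 of 7 origin recognition genes and 2 of 7 origin firing genes (28.6% each). In heterozygous tumors 0 of 6 tested origin recognition genes and 8 of 10 tested firing genes were called higher (5.57% of all genes). The genes read for words and the genes tested are not the same sets, so these counts cannot be set against each other. Orc1, which held a word, and Ticrr were not tested. Gins1 and Gins2, both called higher, had no matched promoter. A match is a description of letters and not of a bound site.

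One window of 30 bases from each of the 6 genes is shown, since these carry the shared word, read 5′ to 3′ on the gene's own strand with the E2F word in capitals. In each window 1 word is in capitals, also where the gene held more. The Mcm3 window lies at chr1:20820275-20820304 on the minus strand, the Mcm5 window at chr8:75109345-75109374 on the plus strand, and the Mcm6 window at chr1:128359734-128359763 on the minus strand. The Mcm7 window lies at chr5:138172030-138172059 on the minus strand, the Cdt1 window at chr8:122568035-122568064 on the plus strand, and the Cdc6 window at chr11:98908002-98908031 on the plus strand.
Mcm3: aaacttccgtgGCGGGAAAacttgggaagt
Mcm5: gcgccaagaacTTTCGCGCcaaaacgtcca
Mcm6: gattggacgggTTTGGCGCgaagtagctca
Mcm7: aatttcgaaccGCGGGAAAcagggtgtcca
Cdt1: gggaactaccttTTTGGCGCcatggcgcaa
Cdc6: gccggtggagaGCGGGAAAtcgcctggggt
The Mcm3, Mcm7 and Cdc6 windows hold the same word on the opposite strand, and Mcm6 and Cdt1 share another word on the gene's strand. The Mcm3 and Cdt1 words lie downstream of the start, at bases 20 and 33, and the other 4 lie upstream. The Mcm5 window also holds a second word in full, GCGCCAAA on the opposite strand, which overlaps the one in capitals.

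Mcm6 had the most E2F words in its window. It also had the largest heterozygous log2 change (3.77), while Cdt1 (3.30) and Cdc6 (3.12) held fewer words than Mcm7 (1.60). Whether the words bear on the changes was not tested. The 250 bases before the Mcm6 start (chr1:128359706-128359955, minus strand) are printed with all of the words in capitals. An upstream block is formed by a pair of overlapping words, one on each strand, and a single word follows nearer the start.
Mcm6: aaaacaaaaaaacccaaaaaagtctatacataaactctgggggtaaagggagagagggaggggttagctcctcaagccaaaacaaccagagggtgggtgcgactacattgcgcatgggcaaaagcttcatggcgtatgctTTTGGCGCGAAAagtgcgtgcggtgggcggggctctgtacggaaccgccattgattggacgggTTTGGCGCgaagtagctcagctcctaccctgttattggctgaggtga
No value on the arrays measures E2F binding.

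All 4 heterozygous samples were above both normal samples in 10 of 10 genes, an order found in 25.4% of all genes tested. The homozygous sample was above both normal samples in 10 of 10 genes (37.6% of all genes). It lay between the normal samples and all 4 heterozygous samples in 8 of 10 genes (9.72% of all genes), and was below all 4 heterozygous samples in the same 8 (26.9% of all genes, and 70.6% of the genes called higher in heterozygous tumors). Mcm7 and Mcm10 were the exceptions.

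In the homozygous sample, 5 of the 10 genes were called higher (Mcm2, Mcm5, Mcm6, Cdt1 and Cdc6) and none lower, where 1.43% of all genes were called higher and 1.31% lower. The median log2 change was 1.66 against -0.03 over all genes. At an unadjusted p under 0.05, 9 of the 10 were higher, against 9.03% of all genes, Mcm10 being the exception. The homozygous change was 57.1% (Mcm10) to 92.1% (Mcm7) of the heterozygous one on the log2 scale. The heterozygous and homozygous changes share the normal samples. These calls rest on both normal samples, since without either of them 0 of the 10 were called in the homozygous sample, and on 1 homozygous sample that the fit assumes to vary like the other groups. Cdc6 lost its call without heterozygous 1-2, 3-4 or 7-8 (adjusted p = 0.0534 to 0.0675, limma), Mcm3 gained one without 1-2 or 5-6 (adjusted p = 0.0485 and 0.0224), and Mcm7 gained one without 5-6 (adjusted p = 0.0130). The one-way analysis of variance of the methods, on 12 arrays, called 7 of the 10 (and 404 of all genes) higher. Its p-value is for the 3 groups together, and only the fold is particular to the homozygous sample. A heterozygous change alone can make that p-value small. Limma on the 12 arrays as separate samples called 7 as well, with Mcm3 and Mcm7 added (and 382 of all genes higher). Both count the arrays of a pair separately. With Xist as a covariate 1 of the 10, Cdt1, was called (adjusted p = 0.0308, limma), where 0.804% of all genes were called higher.

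None of the 10 genes was called between the homozygous sample and the heterozygous tumors by limma, where 0.0487% of all genes were called lower and 0.244% higher. All 10 differences were below 0, with a median log2 difference of -0.76 against -0.03 over all genes. At an unadjusted p under 0.05, 7 of the 10 were lower in the homozygous sample, against 5.97% of all genes. The one-way analysis of variance of the methods, with its p-value for the 3 groups together, called 0 (and 124 of all genes lower). For Cdt1 the difference was -0.92 (95% interval -1.43 to -0.40, adjusted p = 0.238, limma), and for Mcm5 it was -0.89 (95% interval -1.44 to -0.34, adjusted p = 0.284, limma). For Mcm7 it was -0.13 (95% interval -0.90 to 0.65, adjusted p = 0.976, limma), an interval that leaves room for a difference in either direction.

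Among the heterozygous tumors, sample 5-6 had the lowest signal in 10 of 10 genes. It was also lowest at 21 of 21 tested probe sets, which read the same 10 genes in the same samples and add no separate support. Over all genes tested, sample 5-6 was the lowest of the 4 in 27%, sample 1-2 in 29.3%, sample 3-4 in 16.1% and sample 7-8 in 27.7%. Among genes called higher in heterozygous tumors these shares were 41.8% for 5-6, 41.4% for 7-8, 12.8% for 1-2 and 3.94% for 3-4. The distance of 5-6 from the mean of the other 3 ran from -0.26 for Mcm2 to -0.92 for Mcm6, with -0.85 for Mcm7, -0.82 for Cdc6 and -0.77 for Mcm3. Its median over the 10 genes was -0.63, against -0.01 over all genes tested and -0.15 over the genes called higher. The 2 arrays of a pair differed by a median of 0.047 for the 10 genes, against 0.063 over all genes. For Mcm2, 5-6 was only 0.01 below the next sample. The highest of the 4 was sample 1-2 for 4 genes (Mcm2, Mcm3, Mcm7 and Mcm10), sample 7-8 for Mcm6 and Gmnn, and sample 3-4 for the other 4.

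**Figure D3:**
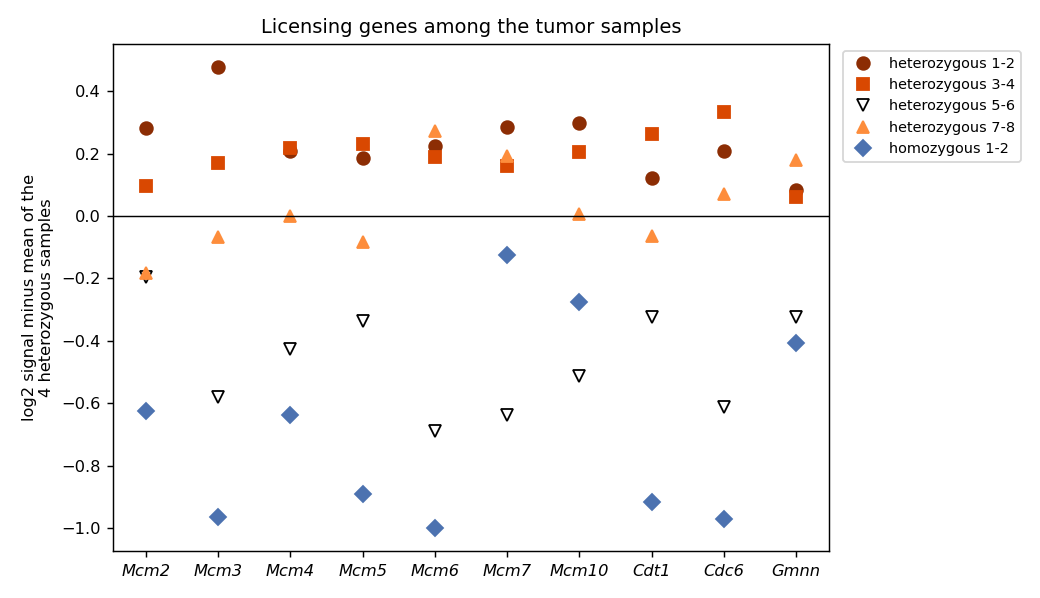
Log2 signal of each tumor sample minus the mean of the 4 heterozygous samples (vertical axis) for each of the 10 genes. Heterozygous 5-6 (open triangle) is the lowest heterozygous point in every gene, and the homozygous sample (diamond) lies under it in 8 genes and above it in Mcm7 and Mcm10.

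The mean of Mcm2 to Mcm7, each gene centered on its own mean, put the samples in one order. It was 1.08 in heterozygous 1-2, 0.97 in 3-4, 0.82 in 7-8 and 0.32 in 5-6, then 0.09 for the homozygous sample and -1.72 and -1.56 for the normal ones. Samples 1-2 and 5-6 were both low in Xist and stood at opposite ends of the heterozygous order. Cdt1, Cdc6, Gmnn and Mcm10, which are not part of this mean, followed it with Pearson's r of 0.993, 0.996, 0.984 and 0.864 over the 7 samples, as a description of samples that share 3 genotypes. The most similar of all other tested genes were Ncapg (0.999), Cenph (0.998), Timeless (0.998), Tube1 (0.998) and Cks2 (0.998). Ncapg is a condensin subunit, Cenph a kinetochore protein, Timeless a protein of the replication fork, Tube1 an epsilon tubulin and Cks2 a partner of cyclin-dependent kinases. The normal means of Ncapg (3.70), Cenph (4.21) and Tube1 (5.20) were under the low-value limit.

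The proliferation markers Mki67, Top2a and Pcna were called higher in heterozygous tumors, by log2 changes of 2.65, 2.45 and 1.74. In the homozygous sample their changes were 1.98, 1.87 and 1.11 (adjusted p = 0.0576, 0.0916 and 0.102, limma), and none was called. Sample 5-6 was the lowest heterozygous sample for these as well, at 9.13 for Mki67, where the other 3 read 9.99 to 10.19.

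Several probe sets read the same gene for 7 of the 10, and they gave a second view of each change. Of the 27 probe sets, 21 passed the filter on low values, and the other 6 read between 2.75 and 5.19 on every array. Of the 21, 20 were called higher in heterozygous tumors (4.92% of all probe sets) and 9 in the homozygous sample (1.25% of all probe sets). None of the 21 was called lower in the homozygous sample than in heterozygous tumors by limma (0.0367% of all probe sets), and 13 were lower at an unadjusted p under 0.05, against 5.17% of all probe sets. For Mcm6 the other tested probe set gave heterozygous and homozygous log2 changes of 4.73 (SE 0.19) and 3.53 (SE 0.28), larger than 3.77 and 2.77, with both of its normal values under the low-value limit. The 4 probe sets of Mcm7 were close to each other in heterozygous tumors, at 1.53 to 1.66, and lay at 1.05 to 1.48 in the homozygous sample. Its homozygous value was above heterozygous 5-6 at each of the 4.

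Mcm3 was called in heterozygous tumors at all 4 tested probe sets (2.02 to 2.87) and in the homozygous sample at none by limma (1.29 to 1.91, with unadjusted p of 0.00140 to 0.0229). Mcm4 differed by probe set in the homozygous sample, where the second one gave 1.45 (SE 0.19, adjusted p = 0.0169, limma) and was called, against 0.91 for the first. Mcm5 also changed its homozygous call, since the second probe set gave 1.84 with an adjusted p of 0.0551 in the limma fit. Cdt1 and Mcm2 were called in both genotypes at both of their tested probe sets. Mcm10 had 2 further probe sets, both under the filter, so its value rests on 1.

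**Figure D4:**
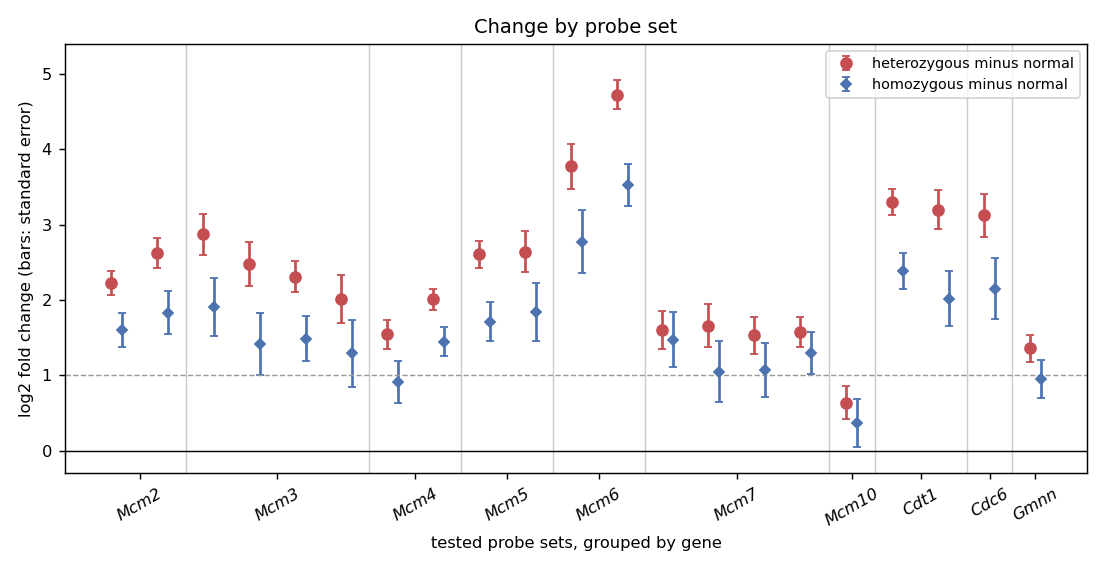
Log2 fold change against normal pituitary (vertical axis, bars are standard errors) at each of the 21 tested probe sets, grouped by gene, for heterozygous tumors (red circles) and the homozygous sample (blue diamonds); the dashed line marks a 2-fold change. Probe sets of 1 gene mostly lie close together, with the widest heterozygous distance for Mcm6 (3.77 and 4.73).

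The other genes of licensing and firing were read from 4 lists, of which 29 genes were tested. Against normal pituitary, heterozygous tumors had 10 of the 29 called higher and 0 lower, and the homozygous sample 2 higher and 0 lower, where the shares of all genes were 5.57% and 4.55%, and 1.43% and 1.31%. Without either normal sample the homozygous count was 0, without heterozygous 5-6 it was 4, and without any other heterozygous sample 1. The calls were not spread evenly over the lists.

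Origin firing and the CMG helicase, the active form of the ring with Cdc45 and GINS, held 8 of the 10 pathway calls, from 10 tested genes. Its median log2 change was 1.34 for heterozygous and 0.81 for homozygous tumors. Gins1, a GINS subunit, read 8.86, 8.73, 8.48 and 8.49 in the heterozygous samples, 7.79 in the homozygous sample, and 5.96 and 6.19 in normal pituitary. It was called in both genotypes, at 2.57 (SE 0.15, adjusted p = 0.000261, limma) and 1.72 (SE 0.21, adjusted p = 0.0142, limma). Topbp1, which brings firing factors to the origin, was the only other gene called in both, at 1.67 and 1.07 (adjusted p = 0.000634 and 0.0491, limma). In heterozygous tumors alone the calls were Wdhd1 (1.63), Gins2 (1.40), Cdc45 (1.36), the kinase pair Dbf4 (1.33) and Cdc7 (1.21), and Gins3 (1.13), and whether these differed between genotypes was not shown, since no pathway gene was called between the homozygous and heterozygous tumors by limma. At an unadjusted p under 0.05, 5 of the 10 firing genes were lower in the homozygous sample than in heterozygous tumors. So were 3 of the 9 degradation genes, against 5.97% of all genes. The one-way analysis of variance called 1 pathway gene lower, Dtl (and 124 of all genes). Its p-value is for the 3 groups together and does not test this difference, which was -1.08 for Dtl and not called by limma.

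The origin recognition complex is the platform that recruits the loaders. None of the 6 tested genes was called in either genotype, and the median log2 change was 0.13 in heterozygous tumors. At an unadjusted p under 0.05, 2 were higher and 2 lower in heterozygous tumors, 2 were higher and 1 lower in the homozygous sample, where the shares of all genes were 20% and 19.1%, and 9.03% and 10.2%. At an adjusted p under 0.05 in the limma fit, whatever the fold, 2 were higher and 1 lower in heterozygous tumors. Over all 12320 genes these counts were 1563 and 1422. The one-way analysis of variance called 0 in both. Orc6 came nearest, with 8.81, 8.83, 8.71 and 8.88 in the heterozygous samples, 8.48 in the homozygous sample, and 7.61 and 8.04 in normal pituitary. Its log2 change of 0.98 passed on p (SE 0.14, adjusted p = 0.00368, limma) and was just under 2-fold. Orc4 was at -0.56 (adjusted p = 0.0245, limma) and Lrwd1, a partner of the complex, at 0.56 (adjusted p = 0.0230, limma), both under 2-fold. The probe sets of Orc1 were under the filter on low values.

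None of the 4 relatives and partners of the ring was called in either genotype, with a median log2 change of 0.41 in heterozygous tumors. Mcm8 and Mcm9, which form a separate helicase that works in DNA repair, had heterozygous changes of 0.83 (adjusted p = 0.00779, limma) and 0.64 (adjusted p = 0.0512, limma). Mcmbp, which binds MCM subunits outside the ring, was at 0.18, and Mcm3ap at -0.30. Mcm8 was past the p threshold and under the fold threshold, 2 of the 4 had an unadjusted p under 0.05 and were higher (20% of all genes) for heterozygous and 0 for homozygous tumors, and the one-way analysis of variance called 0 in both.

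Control of licensing by degradation held 2 called genes of 9 for heterozygous tumors and 0 for the homozygous sample by limma. In the homozygous sample 1 was higher at an unadjusted p under 0.05 (9.03% of all genes). The one-way analysis of variance, with its p-value for the 3 groups together, called 1 (and 404 of all genes higher). Both heterozygous calls are substrate receptors that mark Cdt1 for destruction. Dtl read 8.23, 8.28, 7.40 and 8.23 in the heterozygous samples, 6.96 in the homozygous sample, and 4.62 and 5.32 in normal pituitary. The heterozygous change of Dtl was 3.06 (SE 0.30, adjusted p = 0.000810, limma), with a homozygous change of 1.98 (adjusted p = 0.0582, limma), and both normal values were under the low-value limit. For Skp2 the changes were 1.08 (SE 0.16, adjusted p = 0.00346, limma) and 0.47. The ligase subunits that these receptors share with many other receptors, Ddb1, Cul4a, Cul4b, Skp1, Cul1 and Rbx1, had heterozygous changes of -0.37 to 0.12 and were not called.

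**Figure D5:**
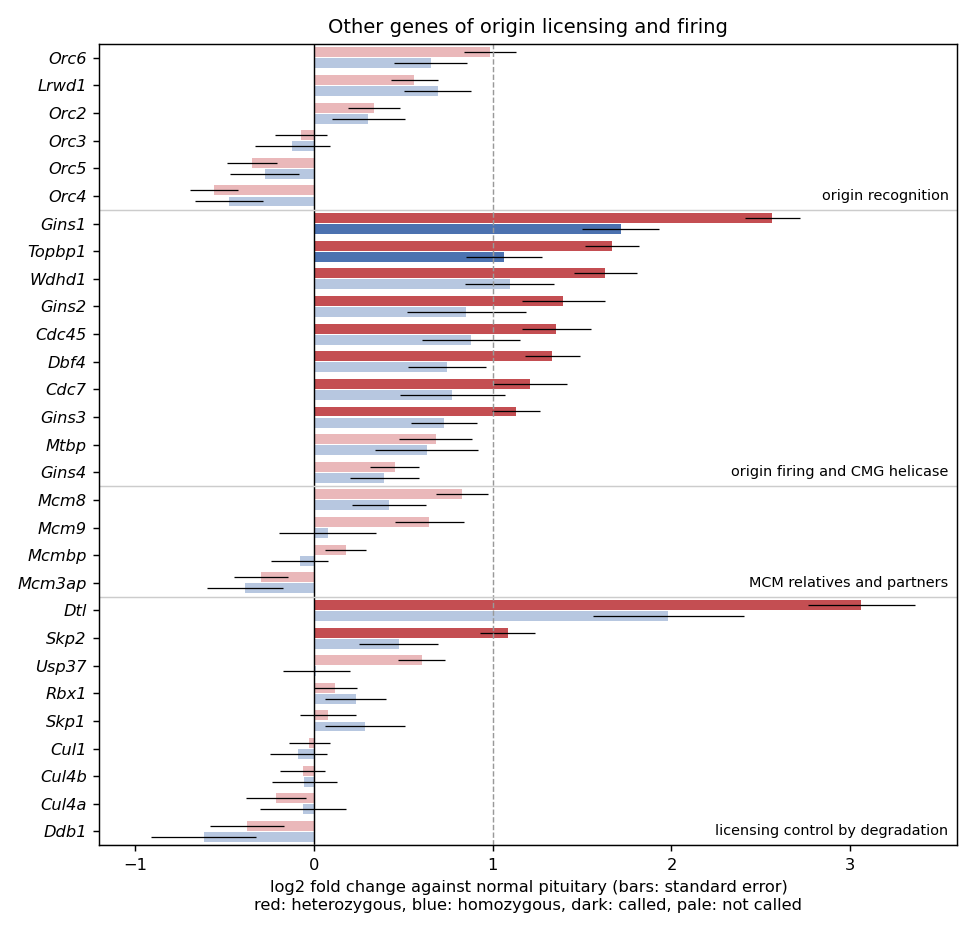
Log2 fold change against normal pituitary (horizontal axis, bars are standard errors) of the 29 other tested genes of licensing and firing, by list, for heterozygous tumors (red) and the homozygous sample (blue); dark bars were called and pale bars were not. The firing list holds 8 called genes in heterozygous tumors and the origin recognition list 0.

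Among the 10 pathway genes called higher in heterozygous tumors, sample 5-6 was the lowest heterozygous sample in 9, Gins3 being the exception. The homozygous sample was below all 4 heterozygous samples in 10. Among all genes called higher in heterozygous tumors these shares were 41.8% and 70.6%. Gins3 read 7.57 in sample 5-6 and 7.21 to 7.30 in the others.

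Totals of some markers of other cells differed between the groups, and those of stromal and erythrocyte genes overlapped. The summed level of 11 macrophage genes was 12.1 to 13.0 in the heterozygous, 11.7 in the homozygous and 10.1 to 10.4 in the normal samples, on the log2 scale. Of its 10 tested genes, 7 were called higher in the heterozygous contrast (5.57% of all genes) and 2 in the homozygous one (1.43%). Itgam was under the low-value limit in all samples. The lowest heterozygous sample of the macrophage total was 7-8, at 12.1, and 5-6 read 12.6. The summed level of 6 other pituitary hormone genes was 14.9 to 16.2, 16.4 and 16.6 in the same order of groups. Signal was summed before taking log2, so genes of high signal weigh most in each total. Of the 6, Lhb, Fshb and Tshb were called lower in heterozygous tumors (4.55% of all genes). Gh, Prl and Cga, which had the highest signal of the 6 in normal pituitary, were not called. Endothelial genes read 9.29 to 9.80, 10.1 and 9.86 to 9.89 in the same order of groups, glial and posterior lobe genes 7.54 to 7.87, 8.29 and 9.32 to 9.49, and stromal genes 11.4 to 12.7, 11.6 and 12.2. In heterozygous tumors 1 of 6 endothelial genes (Tek) and 2 of 3 glial genes (Slc1a3 and Aqp4) were called lower. Of the stromal genes 1 of 5 (Dcn) was called lower, and none in these lists was called higher. The shares of all genes were 4.55% lower and 5.57% higher. Gfap was under the low-value limit in all samples. Erythrocyte genes read 6.61 to 8.52, 7.64 and 7.73 to 8.64. The 7 housekeeping genes had heterozygous changes of -0.19 to 0.32 and none was called. The T and B lymphocyte markers Cd3e, Cd3g and Cd79a were under the low-value limit in all samples. Pax7, a defining gene of melanotrophs, the cells of the intermediate lobe, read 10.84 to 11.47 in the heterozygous samples, 10.38 in the homozygous one and 9.92 and 9.50 in the normal ones. Tbx19, a factor of both Pomc-expressing cell types, read 10.12, 9.97, 9.50 and 10.48 in the heterozygous samples, 9.59 in the homozygous one and 9.66 and 9.72 in the normal ones, with 5-6 and the homozygous sample below both normal values, and was not called. The part of cell makeup in the change of the licensing genes was not tested.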

How the data were processed

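The authors deposited log2 signal values of 45101 probe sets on 12 arrays, made with RMA (background correction, quantile normalization and summary of probes), for which the labels name Affymetrix Expression Console and give no version. Quantile normalization leaves only changes relative to the rest of the array. Raw images and detection calls were not used here. By the platform annotation 34945 probe sets named 1 gene, 932 several and 9160 none, and 64 were controls.

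Array pairs were averaged, a pairing inferred from the values, while the text of the series gives 1 mouse per array. If that holds, the 7 samples understate n. The p-values measure only the spread between these 7 samples. Probe sets at or above the overall median (5.74) in at least 2 arrays were tested, 24509 in all, and 12320 genes by their highest-mean probe set. Limma 3.58.1 in R 4.3.3 fitted the 3 groups together (4 residual degrees of freedom), with Benjamini-Hochberg adjustment over all tested probe sets. The script was tested on simulated data. The same replicate number in different groups did not mark related arrays (correlations of deviations up to 0.07).

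The 10 genes, the pathway and marker lists and the rule for named genes (all 10, and from each list up to 4 called genes with the largest change) were chosen with earlier results of these data known. Genes named beyond that rule were chosen after their values were seen. Promoters are RefSeq entries, matched by symbol. Alternatives were other units of replication, filters, normalizations, gene summaries and tests, an intensity trend and Xist as a covariate. Each heterozygous and normal sample was also left out in turn, but not the homozygous sample, the single sample of its group. Of the planned housekeeping genes 7 were available.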

Additional observations from a re-analysis of the deposited data

Results flagged for a closer look

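Mcm6 and Mcm7 each had 1 of the 4 heterozygous samples far from the other 3. For Mcm6 sample 5-6 read 10.07 and the others 10.95 to 11.03, a gap that makes up 0.913 of the whole range. For Mcm7 sample 5-6 read 9.87 and the others 10.66 to 10.79, a gap of 0.865 of the range. Both are above the 95% critical value of Dixon's test for 4 samples, which chance passes in about 1 of 20 groups, and 10 genes were looked at that share the same samples. The other 8 genes had ratios of 0.390 to 0.765. The 2 arrays of sample 5-6 read 10.08 and 10.06 for Mcm6 and 9.89 and 9.84 for Mcm7.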

How the results depend on the processing

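Under all 18 alternatives 9 of the 10 genes were called higher in heterozygous tumors, and no direction of the 10 genes reversed in any comparison. The homozygous calls were less stable. From 5 of 10, leaving out 1 sample gave 0 to 7 (0 without normal 1 or normal 2, when calls over all 12320 genes also fell from 176 higher to 17 and 18), and Xist as a covariate gave 1. It was 7 with 12 separate arrays, the pair as a random block, the replicate block and the one-way analysis of variance. Homozygous calls over all genes then also rose, from 176 higher to 382, 327, 457 and 404 in the same order. Between homozygous and heterozygous tumors, leaving out 1 sample gave 0 to 0 calls, while arrays numbered 1 and 2 alone gave 5 lower with the replicate block and 5 without it (added after seeing the data), where pair 1-2 is the only heterozygous sample and its 2 arrays count as 2 samples. For homozygous pathway calls, 2 in the main fit, the replicate block gave 4, as did the same arrays without it, 12 separate arrays, the pair as a random block and the one-way analysis of variance. No filter, a filter of 4 arrays, repeated quantile normalization, housekeeping centering and Xist gave 1 each, and leaving out 1 sample gave 0 to 4 (0 without either normal sample, 4 without heterozygous 5-6). Leaving out 1 sample gave 8 to 11 heterozygous pathway calls. With the replicate block, calls over all genes rose from 176 higher and 162 lower to 457 and 362 for homozygous against normal, and from 30 and 6 to 433 and 306 for homozygous against heterozygous. The heterozygous counts of the 10 genes and of the pathway moved by less than 1.5 times. Housekeeping centering moved the homozygous median of all genes to -0.12 and the split of its calls from 176 higher and 162 lower to 145 and 205. Causes were not tested. Precision is limited by 1 homozygous and 2 normal samples, and the size of the Cdc6 and Mcm10 changes by signal near the low-value limit.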
